A study of Homo sapiens with 12 samples.

Results

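The glycolysis genes SLC2A1, HK2, GPI, ALDOA, TPI1, GAPDH, PGK1, ENO1, PKM and LDHA were followed across bulk RNA-seq of human microglia, 10 of the 62703 genes in the count table, each taken by its gene symbol. The cells were iPSC-derived microglia (iMGLs) made from WTC11, a human iPSC line in wide use. CRISPR editing of that line had given 3 control clones, labelled WT (J, K and L), and 3 with LACTB knocked out, labelled LACTB KO (A, B and C). Each clone was differentiated in 2 rounds, which the labels number as differentiation 1 and 2, so that 12 libraries were available, 6 per genotype. A library is named here by its clone and its differentiation, so that B1 is clone B in differentiation 1. Every line is 1 clone, so a clone can differ from the others of its genotype in more than the edit. All clones, WT included, were grown with IL34, TGFb and MCSF and received CX3CL1 and CD200 in the last days, and no other treatment was given. LACTB encodes a mitochondrial protein of the same family as the bacterial penicillin-degrading enzymes, and the comparison asks how its loss alters the transcripts of these cells.

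Glycolysis turns glucose into pyruvate in the cytosol and yields ATP and NADH without oxygen. SLC2A1 (GLUT1) carries glucose into the cell, hexokinase 2 traps it as glucose 6-phosphate, and GPI, aldolase A and TPI1 turn that sugar into triose phosphates. GAPDH, PGK1, ENO1 and PKM complete the path to pyruvate, and LDHA reduces pyruvate to lactate and restores NAD+. Macrophages and microglia are known to raise glycolysis when activated, and many of these genes are known targets of the hypoxia-inducible factors and of MYC.

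The libraries held 24153233 to 28406943 estimated counts. LACTB itself lay between 70.9 and 97.7 CPM (counts scaled to the library total) in the 6 WT libraries and between 7.49 and 9.79 CPM in those of LACTB KO clones A and C. Clone B kept 44.6 and 51.5 CPM of LACTB, below every WT library. All 19 microglial markers were detected (more than 3 counts) in every library. Their summed level was 8795 to 10881 CPM in WT and 8652 to 9525 CPM in LACTB KO libraries. Single markers differed widely, with CSF1R at 1378 to 2032 CPM and SALL1 at 0.255 to 0.873 CPM. TMEM119 ran from 0.314 CPM in L1 to 10.7 CPM in J2. A list of 20 stromal genes was uneven, with sums of 134 to 15253 CPM in WT and 128 to 2229 CPM in LACTB KO libraries, and 12 of its genes were detected in every library. WT libraries J1 and K2 stood apart, with 3643 and 2359 CPM of the collagen gene COL1A1, against 7.15 to 445 CPM in the other 10. Granulocyte and mast cell markers were at or near 0, with 9 of 10 at 3 counts or fewer in every library, among them MPO, ELANE and CPA3. In bulk samples, fewer cells of a type and less RNA per cell cannot be told apart.

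The start-site regions of 3 enzymes whose levels moved together across libraries are shown because they carry ACGTG, a form of the core of the known hypoxia response element. Other forms of that core were not searched. The letters ACGTG were searched on both strands (CACGT on the other) in the 250 bases before each RefSeq start site, and the run CACGTG holds both readings overlapping. In the RefSeq promoter table (GRCh38.p14) all 10 members were found by symbol, with 15 start sites, of which 10 had a match, and 7 of the 10 members had at least 1. Over the whole table, 18.5% of 35116 promoters and 21.7% of 27305 genes had a match. HK2, GPI, ALDOA, TPI1, GAPDH, PGK1 and LDHA had one, while SLC2A1, ENO1 and PKM had none in this window. Each region is read on the plus strand and ends at or just before a RefSeq start site, and capitals mark the matches. Only the longest stretch without annotated exon bases is shown, 122 of the 250 bases for GAPDH. The regions of PGK1 and GAPDH lie inside the annotated spans of these genes, and the bases before those spans were not searched.
PGK1, chrX:78103998-78104247: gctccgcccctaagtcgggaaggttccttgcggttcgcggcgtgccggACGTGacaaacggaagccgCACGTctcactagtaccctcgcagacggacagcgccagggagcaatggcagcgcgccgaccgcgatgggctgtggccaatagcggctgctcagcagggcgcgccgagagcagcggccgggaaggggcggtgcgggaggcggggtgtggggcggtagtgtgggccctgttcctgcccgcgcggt
LDHA, chr11:18394313-18394559: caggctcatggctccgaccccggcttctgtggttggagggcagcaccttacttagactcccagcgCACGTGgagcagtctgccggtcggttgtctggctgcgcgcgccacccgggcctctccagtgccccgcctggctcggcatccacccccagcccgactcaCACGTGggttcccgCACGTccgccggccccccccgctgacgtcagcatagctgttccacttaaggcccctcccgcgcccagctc
GAPDH, chr12:6535142-6535263: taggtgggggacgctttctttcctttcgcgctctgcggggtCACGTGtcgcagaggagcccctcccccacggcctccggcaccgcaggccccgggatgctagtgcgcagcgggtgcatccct
A match describes letters only, and binding of a factor was not measured here.

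All 10 genes were well expressed and together took 0.580% (J1) to 0.850% (B1) of the counts of a library. Per kilobase of annotated exon, GAPDH stood highest at 609 ± 101 CPM per kb (SD over all 12 libraries), followed by ENO1 at 243 ± 36.3 CPM per kb. ALDOA at 199.8 ± 18.9 and PKM at 195 ± 21.3 CPM per kb came next and differed by less than their spread. TPI1 stood at 157 ± 20.5 CPM per kb and PGK1 at 109 ± 10.9 CPM per kb. LDHA at 45.7 ± 8.69 and HK2 at 38.7 ± 4.26 CPM per kb again differed by less than the SD of LDHA. GPI reached 24.7 ± 2.92 CPM per kb, and the transporter SLC2A1 stood lowest at 3.58 ± 0.879 CPM per kb. Exon length was counted over every annotated transcript of a gene, 10680 bases for GPI against 2396 for GAPDH, and long rare transcripts lower the value per kb.

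**Figure D1:**
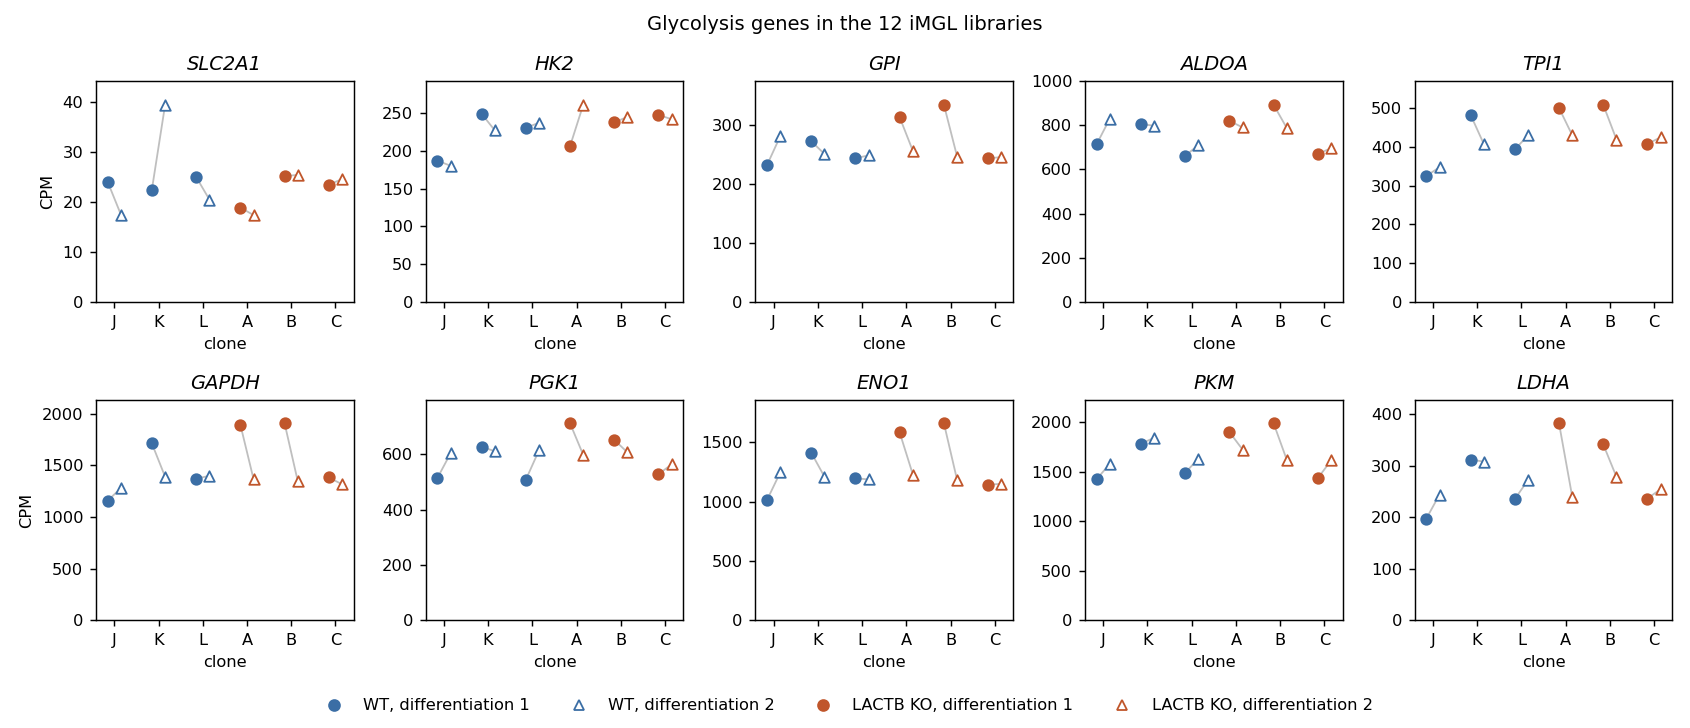
CPM (linear axis from 0) of each glycolysis gene in the 12 iMGL libraries, by clone, with WT in blue and LACTB KO in orange, filled circles for differentiation 1, open triangles for differentiation 2 and grey lines joining the libraries of a clone. The enzymes from GPI to LDHA stand high in B1 and A1 and low in J1, whereas SLC2A1 stands highest in K2 at 39.5 CPM.

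None of the 10 genes differed between LACTB KO and WT iMGLs beyond the spread between clones. The fitted values of 9 of 10 genes lay above 0 in LACTB KO clones, with SLC2A1 the exception, and the median log2 fold change of the 10 was 0.11 against 0.0067 over all genes tested. With 1 clone left out the median ran from 0.05 (without WT J) to 0.18 (without WT K). These values were small, between -0.15 for SLC2A1 and 0.17 for TPI1, and 0 of the 10 passed edgeR's quasi-likelihood test with Benjamini-Hochberg adjustment. Over all 17577 genes 0 were called (0%), 1118 (6.36%) had an unadjusted p under 0.05, none of them a glycolysis gene, and DESeq2 called 171 genes, again none of the 10. LACTB, the edited gene, was not called in the edgeR fit either (log2 fold change -1.87, SE 0.675, adjusted p = 0.735). An absent call therefore says little about small changes here. With 1 clone left out, 515 (without LACTB KO A) to 1986 (without WT L) genes had an unadjusted p under 0.05, and none was a member. No member had all 3 LACTB KO clones above all 3 WT clones, as 4.38% of genes did, or all 3 below, as 6.37% did. Exact two-sided permutation tests on clone levels gave p between 0.2 and 0.7 for the 10 genes, where 3 clones against 3 cannot go below 0.1.

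**Figure D2:**
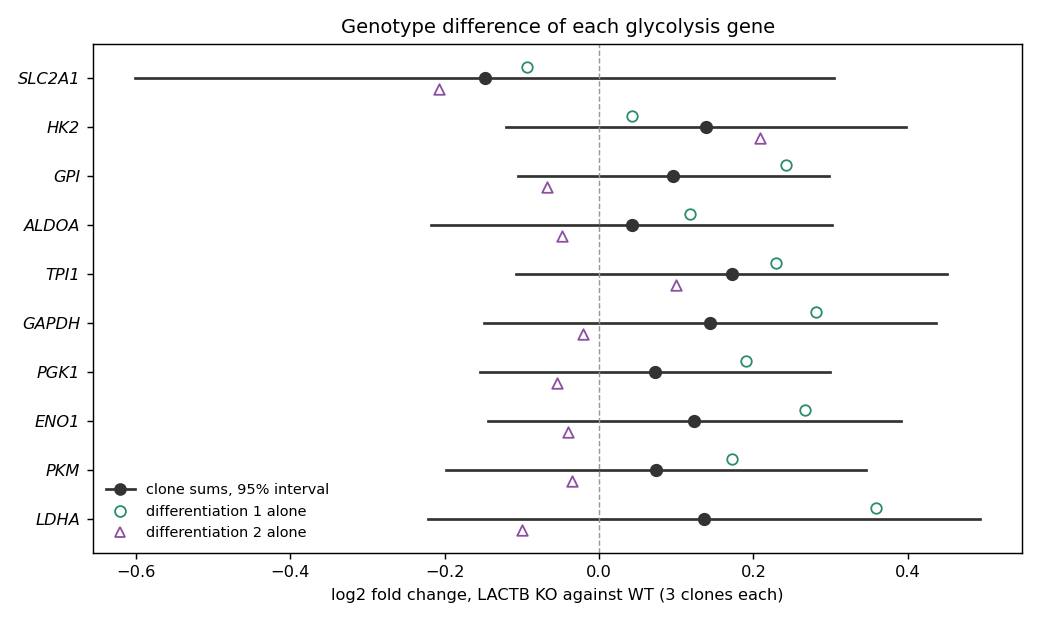
log2 fold change of LACTB KO against WT for each glycolysis gene, with black points and 95% intervals from the clone sums (3 clones per genotype), green circles for differentiation 1 alone and purple triangles for differentiation 2 alone. Every interval spans 0, and 7 of the 10 genes lie above 0 in differentiation 1 and below it in differentiation 2.

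The genes of glucose entry and capture did not separate the genotypes. SLC2A1 (ENSG00000117394.24, GRCh38 chr1:42925353-42958893, minus strand) stood at 20.8, 31.3 and 22.8 CPM in the clone sums of WT J, K and L and at 18.1, 25.4 and 24.1 CPM in those of LACTB KO A, B and C. The groups overlapped, and the high value of clone K came from library K2 at 39.5 CPM, against 22.5 CPM in K1. Its log2 fold change was -0.15 (SE 0.191, adjusted p = 0.906), and it turned to 0.10 when the libraries with COL1A1 above 1000 CPM, J1 and K2, were left out, and to 0.05 without clone K. HK2 (ENSG00000159399.10, chr2:74834127-74893359, plus strand) stood at 183, 239 and 233 CPM in WT J, K and L and at 235, 241 and 245 CPM in LACTB KO A, B and C. Clone J was low in both of its libraries, at 187 and 180.1 CPM, and the other 5 clones were close together. The log2 fold change of HK2 was 0.14 (SE 0.109, adjusted p = 0.878), with a 95% interval from -0.12 to 0.40, and without clone J it was 0.02.

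The enzymes that handle hexose and triose phosphates showed the same overlap of genotypes. GPI (ENSG00000105220.17, chr19:34359480-34402413, plus strand), which turns glucose 6-phosphate into fructose 6-phosphate, stood at 256, 262 and 245 CPM in WT J, K and L and at 282, 289.6 and 244 CPM in LACTB KO A, B and C. Clones A and B were above every WT clone and C below every one, and the log2 fold change was 0.10 (SE 0.085, adjusted p = 0.878), and 0.05 without clone B. ALDOA (ENSG00000149925.22, chr16:30064164-30070457, plus strand), which splits fructose 1,6-bisphosphate, stood at 772, 805 and 683 CPM in WT and 804, 840.3 and 683 CPM in LACTB KO clones. Its log2 fold change was 0.04 (SE 0.109, adjusted p = 0.945), and the value fell below 0 without clone L (-0.02). A transcript model on the same strand, ENSG00000285043, overlaps ALDOA and held up to 24.1% as many counts as ALDOA in a library, and reads that both could claim may have been split. TPI1 (ENSG00000111669.15, chr12:6867119-6870948, plus strand), which interconverts the triose phosphates, stood at 335, 446 and 409 CPM in WT and at 462, 463 and 416 CPM in LACTB KO clones. It had the largest fitted difference of the 10, with a log2 fold change of 0.17 (SE 0.117, adjusted p = 0.878) and a 95% interval from -0.11 to 0.45. Without WT clone J, the lowest clone for TPI1, the value was 0.06.

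The later part of the path, from GAPDH to pyruvate, included the most abundant of these transcripts. GAPDH (ENSG00000111640.15, chr12:6534512-6538374, plus strand), which forms 1,3-bisphosphoglycerate and NADH, stood at 1217, 1554 and 1379 CPM in WT J, K and L and at 1611, 1622 and 1349.5 CPM in LACTB KO A, B and C. Clones A and B lay above every WT clone and clone C lay among them, with a log2 fold change of 0.14 (SE 0.123, adjusted p = 0.878). PGK1 (ENSG00000102144.15, chrX:77910739-78129295, plus strand), which makes the first ATP of the path, stood at 558, 621 and 557 CPM in WT and at 651, 629.6 and 546 CPM in LACTB KO clones, with a log2 fold change of 0.07 (SE 0.096, adjusted p = 0.908). The annotated span of PGK1 overlaps ATP7A on the same strand, which held at most 14.0% as many counts as PGK1. ENO1 (ENSG00000074800.16, chr1:8861000-8879190, minus strand), which forms phosphoenolpyruvate, stood at 1129, 1316 and 1189 CPM in WT and at 1393, 1419 and 1147 CPM in LACTB KO clones, with a log2 fold change of 0.12 (SE 0.113, adjusted p = 0.879). For both genes the genotypes overlapped through clone C. PKM (ENSG00000067225.21, chr15:72199029-72231819, minus strand), pyruvate kinase, stood at 1502, 1821 and 1553 CPM in WT and at 1806, 1803 and 1523 CPM in LACTB KO clones, and its highest clone was WT K. Its log2 fold change was 0.07 (SE 0.115, adjusted p = 0.914). Without WT clone J the values were 0.05 for GAPDH, 0.07 for ENO1 and 0.02 for PKM, and that of PGK1 was 0.03 without LACTB KO clone A. Processed copies of the 10 genes elsewhere in the genome took few counts, at most 0.826% of the parent gene (TPI1), and the 65 copies of GAPDH together at most 0.468%.

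LDHA (ENSG00000134333.15, chr11:18394560-18408425, plus strand), which makes lactate, was the most variable enzyme of the list. It stood at 221, 311 and 252 CPM in WT J, K and L and at 307, 309.6 and 245 CPM in LACTB KO A, B and C. No LACTB KO clone lay above every WT clone, and the log2 fold change was 0.14 (SE 0.150, adjusted p = 0.894), with a 95% interval from -0.22 to 0.49. Without WT clone J it was 0.02, and without WT clone K 0.28. Across single libraries LDHA ran from 197 CPM in J1 to 383 CPM in A1, a ratio of 1.94, against 1.35 for ALDOA, the steadiest of the 10. The SD of log2 CPM over the 12 libraries was 0.137 (ALDOA) to 0.316 (SLC2A1), and the median gene had 0.253.

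The fitted genotype values of 7 genes lay on opposite sides of 0 in the 2 differentiations, and this difference did not pass its own test. In differentiation 1 alone, 9 of 10 genes had fitted values above 0 (median log2 fold change 0.21), led by LDHA at 0.36, GAPDH at 0.28 and ENO1 at 0.27. In differentiation 2 alone, 2 of 10 were above 0 (HK2 and TPI1), the median was -0.04, and LDHA stood at -0.10. None of these values passed the test within a differentiation. The direct test of this difference, the interaction of genotype and differentiation with clone as block, gave values below 0 for 9 of 10 genes (median -0.22, against -0.0034 over all genes tested). LDHA had the largest value at -0.45 (SE 0.213), with an unadjusted p of 0.070 in the fit and an adjusted p of 1.00. The 10 adjusted p-values were all 0.999 or more, 0 of 16681 genes were called (0%) by edgeR or by DESeq2, and 153 (0.917%), none of them a member, had an unadjusted p under 0.05. That count ran from 72 (without WT J) to 1325 (without WT K) with 1 clone left out, and then took in LDHA and GPI without LACTB KO clone C and GAPDH without WT clone K. The LDHA value ran from -0.66 (without LACTB KO C) to -0.26 (without LACTB KO A).

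Within clones, the change from differentiation 1 to 2 ran both ways. The log2 CPM of GAPDH, differentiation 2 minus 1, differed by -0.47 in clone A, -0.50 in clone B and -0.30 in clone K, and by -0.07 in C, 0.03 in L and 0.15 in J. LDHA differed by -0.67 in clone A, -0.30 in clone B and -0.02 in clone K, and by 0.31 in J, 0.21 in L and 0.11 in C. Clones A and B were lower in differentiation 2 for every enzyme from GPI to LDHA, and clone J was higher for each of these. Over the 6 clones the fitted change was between -0.20 for GAPDH (SE 0.101, adjusted p = 0.615) and 0.03 for PGK1 and HK2, with 5 genes above and 5 below 0 and a median of -0.03. In edgeR 0 of 16681 genes were called (0%), 1552 (9.30%) had an unadjusted p under 0.05, none of them a member, and DESeq2 called 310 genes, again none of the 10. With 1 clone left out, 988 (without LACTB KO B) to 1848 (without LACTB KO A) genes had an unadjusted p under 0.05, GAPDH and ENO1 among them without WT clone J. No member was lower in differentiation 2 in all 6 clones, as 2.76% of genes were, and none split with every LACTB KO clone one way and every WT clone the other, as 1.03% did. Exact two-sided sign-flip tests over the 6 clones gave p between 0.188 and 0.969, where 0.03125 is the smallest value this design can give.

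**Figure D3:**
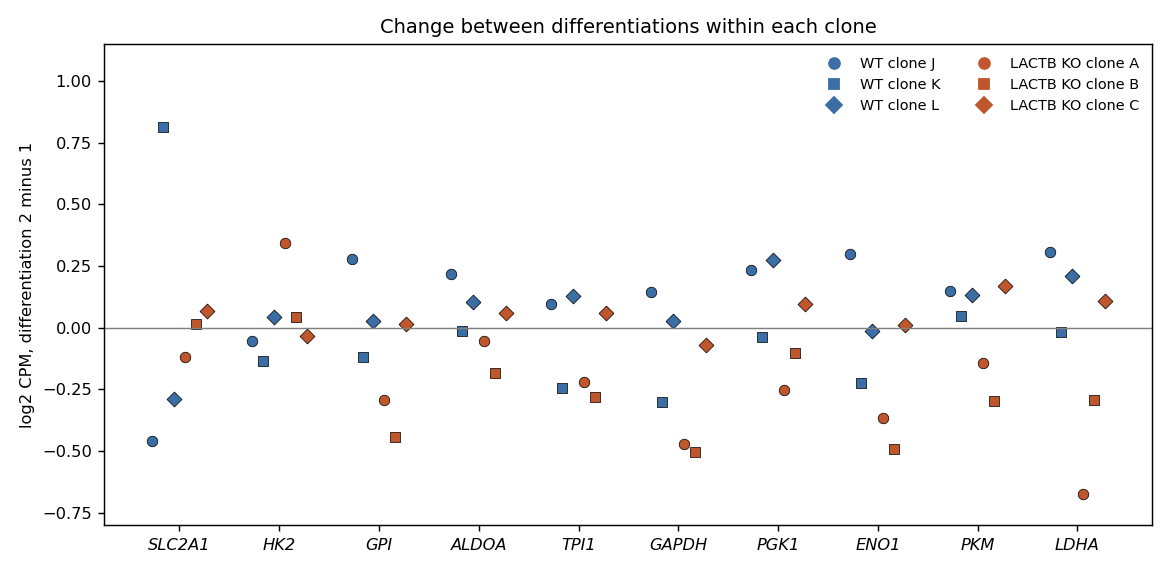
Difference in log2 CPM, differentiation 2 minus differentiation 1, of each glycolysis gene within each clone, with WT clones in blue and LACTB KO clones in orange. Clones A (orange circle) and B (orange square) lie below 0 for the enzymes from GPI to LDHA, and SLC2A1 runs from -0.46 in J to 0.81 in K.

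The enzymes from GPI to LDHA varied together across libraries, while SLC2A1 did not follow them and HK2 did so mainly with TPI1. Over the 12 libraries, which share 6 clones and their differentiations, the 28 pairs of these 8 enzymes had Pearson correlations of log2 CPM from 0.440 to 0.960 (median 0.806). SLC2A1 had correlations of -0.250 to 0.114 with the 8 enzymes and HK2 of -0.133 to 0.581. The highest of HK2, with TPI1, was above the lowest within the 8, ALDOA with TPI1 (0.440). The 8 were taken as a group by their place in the path after their values had been seen, so these correlations are a description. Correlations among pairs of other genes were not set beside them. The mean log2 CPM of the 8 enzymes was highest in B1 (9.69) and A1 (9.68), followed by K1 (9.53), and lowest in J1 (9.12). The 5 genes outside the list with the most similar pattern, among 9462 with a mean of at least 10 CPM, were PSMB3 (r = 0.980) and PSMB7 (r = 0.967), subunits of the proteasome, the translation factor EIF5A (r = 0.976), the nuclear transport GTPase RAN (r = 0.974) and the actin-binding protein PFN1 (r = 0.961). Here r was taken with the mean z score of the 10 members over the 12 libraries.

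**Figure D4:**
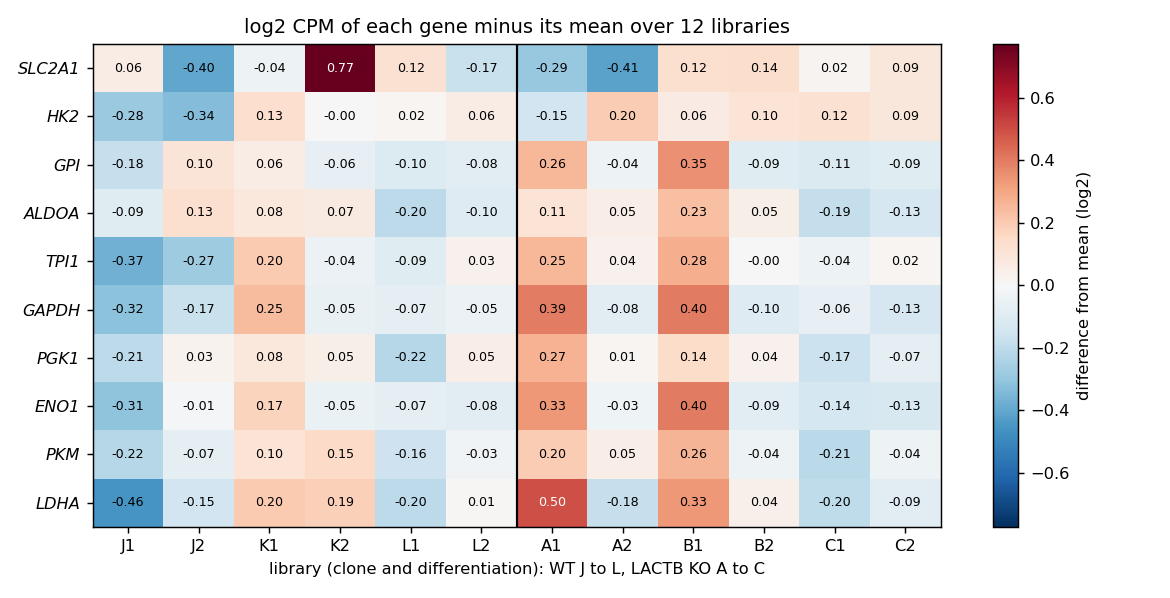
Heat map of the log2 CPM of each gene minus its mean over the 12 libraries, with red above and blue below the mean, WT libraries left and LACTB KO libraries right of the line. LDHA runs from -0.46 in J1 to 0.50 in A1, and the 8 enzymes from GPI to LDHA share a sign within each of A1, B1 and J1, while SLC2A1 has the opposite sign in A1 and J1.

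The stromal level and the enzyme level differed in opposite ways in most clones. J1 had the lowest enzyme mean and the highest mean log2 CPM of the 20 stromal genes (5.69), and K2, with a stromal mean of 5.44, had the fourth highest enzyme mean. In 5 of 6 clones the library with more stromal transcript had the lower enzyme mean, and clone A went the other way. SLC2A1 was higher in the library with more stromal transcript in 5 of 6 clones. All 17 stromal genes tested had fitted values below 0 in LACTB KO clones (median log2 fold change -2.69), 13 of them with an unadjusted p under 0.05 and 0 called. With the stromal level as a covariate the median of the 10 glycolysis genes was 0.23, and without J1 and K2 it was 0.06, with 0 of the 10 called in either fit. The part of stromal cells in the values of the members was not tested further.

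**Figure D5:**
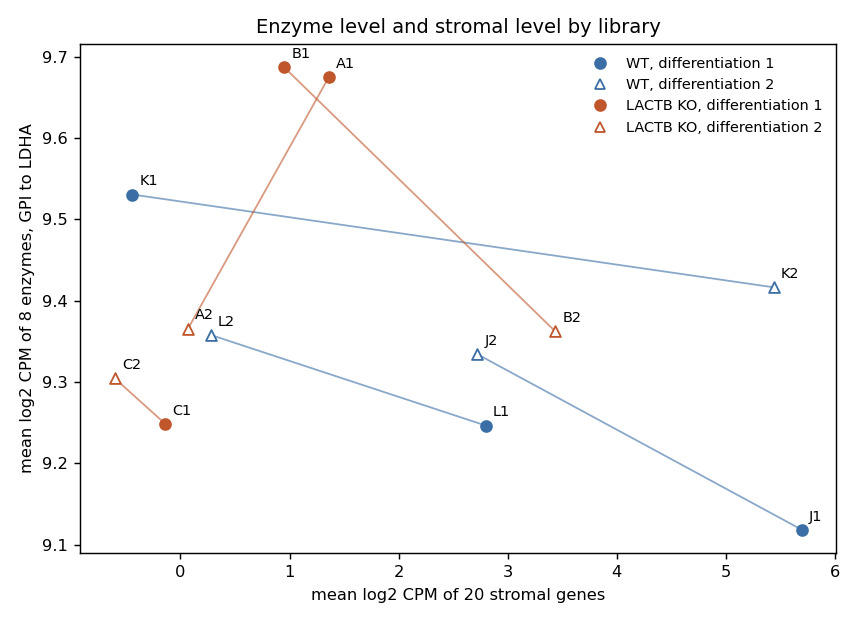
Mean log2 CPM of the 8 enzymes from GPI to LDHA against the mean log2 CPM of 20 stromal genes in each library, with lines joining the libraries of a clone, WT in blue, LACTB KO in orange, circles for differentiation 1 and triangles for differentiation 2. J1 lies lowest in enzymes and highest in stromal genes, and the line of clone A rises where the other 5 fall.

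The other genes of the path were read from 5 lists that together held 96 genes, of which 85 were tested between genotypes and 0 were called. Of 15 other glycolytic enzymes and isoforms tested, 9 had fitted values above 0 and 6 below (median log2 fold change 0.02). HK1, the housekeeping hexokinase, stood at 37.6 ± 3.72 CPM per kb, close to HK2, with a log2 fold change of 0.11 (adjusted p = 0.878). PFKL was the most abundant phosphofructokinase subunit at 33.0 CPM per kb, against 9.29 for PFKP and 6.57 for PFKM, and its log2 fold change was 0.02. LDHB, the other lactate dehydrogenase subunit, was more abundant per kb than LDHA, at 181 ± 22 CPM per kb, with a log2 fold change of -0.03. HK3, a hexokinase of myeloid cells, stood at 55.6 CPM in J2 and between 2.62 and 11.5 CPM in the other 11 libraries. Its log2 fold change was -1.57 (SE 0.682, adjusted p = 0.797), and without clone J it was -0.34. ENO2 had a value of -0.54 and PFKP one of 0.31 (adjusted p = 0.810 and 0.878), and without clone J these were -0.32 and 0.11.

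Regulators of the path had 7 of 14 fitted values above and 7 below 0 between genotypes, and none was called. PFKFB4, which sets the level of the phosphofructokinase activator fructose 2,6-bisphosphate, had every LACTB KO clone below every WT clone, as 6.37% of genes did, at 8.82 ± 2.5 against 10.6 ± 2.67 CPM (SD, 6 libraries each). Its log2 fold change was -0.26 (SE 0.112, adjusted p = 0.794). PDK2, a kinase of pyruvate dehydrogenase, had every LACTB KO clone above every WT clone, as 4.38% of genes did, with a log2 fold change of 0.09 (adjusted p = 0.878). PFKFB2, a kinase related to PFKFB4, had a value of -0.28 (adjusted p = 0.878), and -0.04 without WT clone J. Of 15 glucose and monocarboxylate transporters, 4 had values above 0 and 11 below (median -0.15). The neuronal-type transporter SLC2A3 (GLUT3), at 15.7 ± 2.87 CPM per kb, was more abundant per kb than SLC2A1 in these cells, and its log2 fold change was 0.13. SLC2A10 had an unadjusted p under 0.05 with a value of -2.16 (SE 0.618, adjusted p = 0.726), which became -0.78 without J1 and K2, its highest libraries at 6.80 and 2.91 CPM. The monocarboxylate carrier SLC16A7 had a value of -0.86 and the urate and hexose carrier SLC2A9 one of -1.02 (adjusted p = 0.798 and 0.830), and without WT clone J these were -0.30 and -0.27. Of 19 genes of the pentose phosphate branch, gluconeogenesis and pyruvate entry, 11 lay above and 8 below 0 (median 0.01), and none had an unadjusted p under 0.05. The smallest p-values belonged to FBP1, a gluconeogenic phosphatase at no more than 1.02 CPM on average in either genotype (log2 fold change -1.08), RPIA of the pentose phosphate branch (0.24) and GPD1 (-0.48), with adjusted p of 0.826, 0.878 and 0.878. Without WT clone J these were -0.49, 0.09 and -0.18.

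Hypoxia targets outside glycolysis had 9 of 22 fitted values above and 13 below 0 (median -0.13). The 3 with an unadjusted p under 0.05 were STC2 (log2 fold change -1.56), P4HA2 (-2.57) and LOX (-2.89), each with an adjusted p of 0.726. STC2 encodes a secreted glycoprotein, and P4HA2 and LOX are known for hydroxylating and crosslinking collagen. LOX stood at 142 CPM in J1 and 81.3 CPM in K2 and between 1.38 and 20.9 CPM in the other 10 libraries, so that its high libraries were those with the most COL1A1. Without J1 and K2 the values were -0.22 for STC2, -0.55 for P4HA2 and -0.58 for LOX. STC2 passed in DESeq2 (adjusted p = 0.0131), where the 2 libraries were kept.

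Between differentiations, several regulators had larger fitted changes than any of the 10 members, and none passed edgeR's adjusted test. PDK4 encodes a kinase that inhibits pyruvate dehydrogenase. In differentiation 1 it stood at 4.13, 9.05 and 25.3 CPM in WT J, K and L and at 27.4, 12.5 and 14.4 CPM in LACTB KO A, B and C. In differentiation 2 it stood at 4.73, 4.64 and 2.58 CPM in WT and at 4.15, 3.17 and 2.12 CPM in LACTB KO clones. It was lower in differentiation 2 in 5 of 6 clones, with clone J the exception, and the log2 fold change was -1.95 (SE 0.460, adjusted p = 0.283). The call depended on the fit, with an adjusted p of 7.21e-05 in DESeq2 and 0.0333 with no filter on low counts. The adjusted p was 0.0464 in LACTB KO clones alone and 0.0119 without clones J and K. Those clones were left out whole because J1 and K2 were rich in COL1A1, and L was then the only WT clone. PFKFB4 was higher in differentiation 2 in 6 of 6 clones, at 11.9 ± 1.38 against 7.51 ± 1.28 CPM (SD, 6 libraries each), with a log2 fold change of 0.68 (SE 0.116, adjusted p = 0.149). PDK3 was also higher in 6 of 6 clones, at 35.7 ± 2.13 against 28.3 ± 1.83 CPM, with a log2 fold change of 0.34 (SE 0.065, adjusted p = 0.228). These 3 genes were named for the smallest p of their list in the same fit, so their order over clones is a description. The share of all genes higher in all 6 clones was not counted. Of 13 regulators tested between differentiations, 8 lay above and 5 below 0, and 6 had an unadjusted p under 0.05, as 9.30% of all genes did. DESeq2 called PFKFB4, PDK3 and PDK4.

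The pentose phosphate enzyme PGD was higher in differentiation 2 in 6 of 6 clones, at 355 ± 29.3 against 313 ± 20.7 CPM, with a log2 fold change of 0.18 (SE 0.051, adjusted p = 0.346). Pyruvate carboxylase (PC) showed the same order in 6 of 6 clones, with a log2 fold change of 0.20 (SE 0.057, adjusted p = 0.354). MPC2, a subunit of the mitochondrial pyruvate carrier, was higher in 6 of 6 clones as well, with a log2 fold change of 0.24 (SE 0.070, adjusted p = 0.354). PGD, PC and MPC2 were likewise named for small p in their lists, so this order is a description. Of 18 genes of the branches 14 lay above 0, of 14 transporters 12, and of the 10 members 5. SLC2A6, SLC16A7 and PCK2 had unadjusted p under 0.05 as well, as 9.30% of all genes did, with log2 fold changes of 0.42, 0.48 and 0.14. Of 23 hypoxia targets 13 lay above 0, led by NDRG1 (log2 fold change 0.31, adjusted p = 0.504), ADM (0.44, adjusted p = 0.624) and P4HA1 (0.17, adjusted p = 0.677). HK3 and ALDOC were each higher in differentiation 2 in 5 of 6 clones, with log2 fold changes of 1.21 (adjusted p = 0.338) and 0.59 (adjusted p = 0.375), and DESeq2 called both, as it did PGD. PFKP went the other way, lower in differentiation 2 in 5 of 6 clones at 64.4 ± 15.6 against 80.1 ± 15.5 CPM, with a log2 fold change of -0.33 (SE 0.103, adjusted p = 0.379). Of the 15 other glycolytic enzymes and isoforms, 7 lay above and 8 below 0 (median -0.03).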

How the data were processed

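Bulk poly(A) RNA of 12 iMGL libraries was analysed. Per the study's methods, the authors made TruSeq libraries, sequenced paired reads, trimmed adapters with Cutadapt and aligned to hg38 with STAR. The authors deposited estimated counts per gene, not scaled between libraries, of which 10.8% to 11.5% per library were not whole numbers. The counting tool and its strand setting are not given in the sources used here, so reads of overlapping genes and of antisense partners cannot be told apart, and the submitters' processing notes name R 4.3.3.

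Values were rounded in each library. For genotype, counts were summed over the 2 differentiations of a clone and 3 clones per genotype were compared in edgeR 4.0.16 (R 4.3.3) with TMM and the filter filterByExpr, by the quasi-likelihood test, with p-values adjusted after Benjamini and Hochberg over 17577 genes and a threshold of 0.05. Each sum balances the 2 differentiations that the labels number. The difference between differentiations and its interaction with genotype were fitted on 12 libraries with clone as a block (16681 genes). All adjusted p-values are from these edgeR fits unless DESeq2 1.42.0 is named, and standard errors are the log2 fold change over the root of the F statistic. The study's mixed model (DREAM) was not used here, and limma 3.58.1 voom with clone as a correlated block was the nearest alternative. Levels are CPM on TMM-scaled totals, and log2 CPM used a prior count of 2. The p-values take the 6 clones as independent. No pair of libraries agreed within counting error (chi-square per degree of freedom at least 8.11).

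The members, the 12 gene lists and the tests were chosen with earlier results of these data known. The genes named are the 10 members, LACTB, the 3 genes with the smallest p in each of 5 related lists for genotype and for differentiation, the 5 genes most like the members, and genes that could share reads with a member. HK1, PFKL, PFKM, LDHB and SLC2A3 were named after their values had been seen. Coordinates and exon lengths are from GENCODE 44 on GRCh38, in which 62639 of the 62703 identifiers were found, and promoters are from RefSeq. The main steps were tested on simulated counts, which held no spread between clones beyond that between libraries. That test therefore does not show what size of change these clones allow to be called. Alternatives covered normalization, filtering, DESeq2, voom, the replicate block, each differentiation, a stromal covariate, libraries with COL1A1 above 1000 CPM and each clone left out. Where clone was the block, leaving out J1 and K2 for COL1A1 removed clones J and K whole.

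Other lists checked for cell types gave summed levels of 8.67 to 16.1 CPM for erythroid and megakaryocyte genes and at most 0.873 CPM for pluripotent genes. Endothelial genes summed to 327 to 444 CPM (CDH5 at 3 counts or fewer). PECAM1 alone took 326 to 443 CPM of this, and no other gene of that list exceeded 6.20 CPM (KDR in J1).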

Additional observations from a re-analysis of the deposited data

Results flagged for a closer look

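SLC2A1 in the WT libraries stood out because its highest library, K2 at 39.5389 CPM, lay far from the other 5, which ran from 17.5 to 25.1 CPM. The gap made up 0.657 of the whole range. LACTB in the WT libraries stood out in the same library, with 97.7236 CPM against 70.9 to 80.9 CPM in the other 5, and a gap of 0.628 of the range. K2 also had 2359 CPM of COL1A1, the second highest of the 12 libraries after J1, and the part of stromal cells in these values was not tested. In all 22 groups were examined, each 1 gene in the 6 libraries of a genotype, and chance alone marks about 1 in 20.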

How the results depend on the processing

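None of the 10 members was called in any of the 3 comparisons under any alternative run. The median genotype log2 fold change of the members was 0.11 and became 0.102 with the differentiation as replicate block, which changed no call, and -0.0440 in differentiation 2 alone. The block fit held no term for clone, so libraries of the same clone counted there as separate replicates. In differentiation 2 alone the genotype value turned for ALDOA (-0.0476), ENO1 (-0.0403), GAPDH (-0.0207), GPI (-0.0677), LDHA (-0.0996), PGK1 (-0.0551) and PKM (-0.0347), and in differentiation 1 alone for FBP1 (0.342) and PDK2 (-0.00902). With the COL1A1-rich libraries J1 and K2 left out, SLC2A1 turned in the genotype fit (0.10). The interaction and differentiation fits then lost clones J and K whole, with L the only WT clone. There SLC2A1 turned in the interaction (0.278) and between differentiations (-0.0798), as did ALDOA (-0.0171) and PKM (-0.0331) between differentiations. Library totals without TMM turned differentiation values of ALDOA (-0.0149), HK2 (-0.00228), PGK1 (-0.00206), PKM (-0.0269) and SLC2A1 (-0.0333), and the interaction of SLC2A1 (0.00733). The stromal covariate turned SLC2A1 between differentiations (-0.0274). WT clones alone turned ENO1 (0.0133), GPI (0.0534), HK2 (-0.0553) and LDHA (0.159), and LACTB KO clones alone ALDOA (-0.0442), PGK1 (-0.0726) and PKM (-0.0747). Leaving out 1 clone gave genotype ranges of -0.0205 (without WT L) to 0.129 for ALDOA and -0.268 to 0.0469 (without WT K) for SLC2A1, an interaction range of -0.276 to 0.359 (without WT K) for SLC2A1, and differentiation ranges of -0.0173 to 0.0510 for ALDOA, -0.0144 to 0.0828 for HK2, -0.134 to 0.0748 for LDHA, -0.00489 to 0.105 for PGK1, -0.0181 to 0.0596 for PKM and -0.142 to 0.0973 for SLC2A1. Over all genes, genotype calls numbered 0, against 171 in DESeq2, 2 with no filter and 0 to 1 with a clone left out. Calls between differentiations numbered 0, against 310 in DESeq2, 80 with no filter and 22 without clones J and K. They numbered 10 in LACTB KO clones alone, 2 with no replicate block, and 0 to 44 (without WT J) with a clone left out. LACTB passed without LACTB KO clone B (log2 fold change -3.20, adjusted p = 0.0157 by edgeR). The cause was not tested. With 3 clones per genotype, the 95% intervals of the members left room for changes between 0.659-fold and 1.41-fold.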

Other observations

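The study's quantitative PCR used GAPDH as its reference gene, so the steadiness of GAPDH was set beside that of 7 other genes in common use as references, a choice made after its values were seen. Over the 12 libraries the highest GAPDH level was 1.65 times the lowest, and the SD of its log2 CPM was 0.225. Of the 8 genes only B2M varied more (1.97 times, SD 0.252). HPRT1 was close to GAPDH (SD 0.224), and RPLP0, a ribosomal protein gene, varied least, with 1.34 times and an SD of 0.118. ACTB stood between them with 1.44 times and an SD of 0.167. The genotype log2 fold change was 0.14 for GAPDH, 0.20 for ACTB, 0.20 for HPRT1, -0.10 for B2M and 0.04 for RPLP0, and none of the 8 passed edgeR's adjusted test.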
